A study of Mus musculus with 4 samples.

Results

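The genes described here are 9 genes of the complement system, *C1qa*, *C1qb*, *C1qc*, *C1ra*, *C1s1*, *C4b*, *C3*, *Cfb* and *Serping1*. They were taken by name from the 31053 genes listed in each of 4 single-cell RNA-seq tables, and all 9 were found in all 4. The question was which cells of a tumor and of adipose tissue carry these transcripts, macrophages against stromal, endothelial and cancer cells, and how the levels compare between the tissues. The mice were of the genotype labelled VFB (FVB mice in the study), were fed chow and carried subcutaneous grafts of MycCaP cells, a mouse prostate cancer line. One group received D-CAN, a peptide that homes to adipose stromal cells (ASC) joined to an amphipathic sequence, and the control group received PBS. From each group 1 library was made from tumor cells and 1 from stromal/vascular cells (SVF) of subcutaneous adipose tissue (SAT), after removal of dead and red blood cells. Whether a library pools mice is not stated in the sources used here. With 1 library per group there is no test. Every interval below is a 95% interval that covers counting error only, not the spread between animals.

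Complement is a cascade of plasma proteins that tags cells and debris for removal. In the classical pathway, C1q, built of A, B and C chains encoded by *C1qa*, *C1qb* and *C1qc*, binds its targets and carries the proteases C1r and C1s (*C1ra*, *C1s1*), which cut C4 (*C4b*) so that a convertase for C3 forms. C3 is the protein on which the pathways meet, factor B (*Cfb*) forms the convertase of the alternative pathway, and C1 inhibitor (*Serping1*) blocks C1r and C1s. The liver makes most circulating components, whereas C1q is known as a product of macrophages and dendritic cells, and fibroblasts are a known local source of C1r, C1s, C3 and C1 inhibitor.

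In the GENCODE vM21 annotation of GRCm38, the 3 C1q genes lie side by side on the minus strand of chromosome 4, *C1qb* at 136880129 to 136886187, *C1qc* at 136889804 to 136893065 and *C1qa* at 136895917 to 136898803, a stretch of 18.675 kb. *C1ra* (plus strand, 124512405 to 124523443) and *C1s1* (minus strand, 124530345 to 124542359) are 6901 bp apart on chromosome 6. *C4b* (34728380 to 34743882), *Cfb* (34856374 to 34862518) and *C3* (57203970 to 57228136) are on the minus strand of chromosome 17, where *Cfb* ends 85 bp from *C2*. *Serping1* is on the minus strand of chromosome 2 at 84765387 to 84775444. All 9 are annotated as protein coding. *C1ra*, *C1s1* and *C4b* each have a close copy, and reads were counted near the 3′ end of transcripts. Within the last 500 bases of its transcript, *C1ra* is 98.9% identical to *C1rb* over 181 aligned bases, *C1s1* is 96.8% identical to *C1s2* over 441 and *C4b* is 98.0% identical to *C4a* over 499. The levels of *C1ra* and *C1s1* are therefore uncertain to the extent that reads were split or discarded between copies. *C4a*, annotated as a processed transcript, is not among the genes counted. Whether reads of *C4a* were counted as *C4b* was not tested.

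The DNA before the start site is shown for 2 C1q chains, high in macrophage-like cells here, and for *C1s1* and *C3*, high in fibroblast-like cells here, so that the upstream letters can be compared. The sequences are from RefSeq (GRCm38.p6), 5′ to 3′ on the minus strand, as far as they lie outside the GENCODE gene. They cover chr4:136886201-136886450 for *C1qb*, chr4:136893066-136893164 for *C1qc*, chr6:124542360-124542609 for *C1s1* and chr17:57228137-57228386 for *C3*. Capitals mark the motifs found.
C1qb: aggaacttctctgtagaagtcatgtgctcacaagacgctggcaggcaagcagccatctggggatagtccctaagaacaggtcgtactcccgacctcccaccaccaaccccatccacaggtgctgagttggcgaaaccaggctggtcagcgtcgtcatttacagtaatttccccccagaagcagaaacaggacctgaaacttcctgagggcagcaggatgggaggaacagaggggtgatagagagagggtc
C1qc: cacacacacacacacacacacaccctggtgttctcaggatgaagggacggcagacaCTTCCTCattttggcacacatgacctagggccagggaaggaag
C1s1: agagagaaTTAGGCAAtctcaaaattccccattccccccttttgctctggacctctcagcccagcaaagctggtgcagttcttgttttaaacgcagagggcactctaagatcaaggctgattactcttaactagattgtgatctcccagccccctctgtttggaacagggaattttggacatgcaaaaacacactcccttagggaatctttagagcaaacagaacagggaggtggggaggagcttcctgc
C3: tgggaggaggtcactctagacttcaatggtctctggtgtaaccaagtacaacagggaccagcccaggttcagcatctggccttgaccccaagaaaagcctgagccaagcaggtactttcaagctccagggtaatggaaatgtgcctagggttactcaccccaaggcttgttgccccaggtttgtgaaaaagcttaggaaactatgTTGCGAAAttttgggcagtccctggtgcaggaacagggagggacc
The motifs of 6 factor families were sought on both strands in the 250 bases before the start of the 5 members with an entry (these and *C1ra*). *C1qc* held the ETS motif GAGGAAG, read on the opposite strand, which is present before 10.6% of 32851 promoters. *C1s1* and *C3* each held the CEBP motif TTGCNNAA, present before 9.56% of promoters. In *C1s1* the match began 242 bases before the start shown. A second entry of *C1s1*, with another start and not shown, had no match to any motif. No match was found for the STAT motif TTCNNNGAA (7.02% of promoters), the interferon response element (2.98%) or the NF-kB motif (0.140%). These matches are a description of the letters in the window and were not tested against expression.

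The 4 libraries held 9128 cells, 1525 to 2851 each, with 6667064 to 17996284 UMIs per library (unique molecular identifiers, 1 per captured transcript) and a median of 1700 to 4855 UMIs per cell. Pairs of libraries shared 0 to 2 cell barcodes. The 8986 cells with at least 200 genes were clustered within each tissue without the complement genes, and clusters were named from marker genes. Macrophage-like cells numbered 579 in the tumor control library, 361 in tumor D-CAN, 146 in SAT control and 71 in SAT D-CAN. Stromal cells are fibroblast-like cells (85, 66, 292 and 87 in the same order) together with cells of 1 cluster per tissue named perivascular-like from its markers (108, 51, 169 and 46). The tumor one, cluster 11, was mixed. Its 10 leading genes held the fibroblast markers *Col1a1*, *Col1a2* and *Col3a1* beside the perivascular markers *Acta2* and *Tagln*, and its summed fibroblast markers were at 10543 and 12114 CPM in control and D-CAN, above its perivascular markers at 8842 and 9476 CPM. In the SAT one, cluster 7, fibroblast markers were at 431 and 881 CPM, so these clusters are given by number. No ratio is taken between them alone, but both are part of the stromal class that is compared between tissues. Endothelial-like cells numbered 101, 67, 563 and 170, and cancer-like cells, in tumors, 1827 and 876. All 10 macrophage markers had at least 1 UMI in the macrophage-like cells of every library. Their summed level was 20214 CPM in tumor control, 20602 in tumor D-CAN, 15054 in SAT control and 8332 in SAT D-CAN. CPM are the UMIs of a gene over all UMIs of the class in that library, scaled to the same total. By the stricter rule that named clusters, the 4 tumor clusters had 7 or 8 of 10 macrophage markers, 1 to 5 monocyte and 1 or 2 dendritic markers. The SAT class was 1 cluster and was more mixed, with 7 of 10 macrophage, 6 of 8 monocyte and 5 of 10 dendritic markers by that rule. Its summed dendritic cell markers were at 1293 and 2355 CPM against 272 and 280 CPM in the tumors, its monocyte markers at 2494 and 2839 against 809 and 999 CPM, and its B cell markers at 591 and 1332 against 68.9 and 75.4 CPM. Mast cell markers had no UMI in this class except in SAT D-CAN, where 5 of 6 gave 816 CPM. In the macrophage-like cells, 5 and 2 of 9 T cell markers had UMIs in tumor control and D-CAN, at 46.6 and 45.5 CPM. *Cd3e* was not among them. All 9 T cell markers had UMIs in both SAT libraries, at 402 and 259 CPM.

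C1q transcripts were carried by the macrophage-like cells in both tissues. These cells held 95.7% of all *C1qa*, *C1qb* and *C1qc* UMIs in the tumor control library (95.35 to 96.02%, exact binomial), 96.4% in tumor D-CAN (96.06 to 96.71%), 96.0% in SAT control (94.85 to 97.01%) and 98.4% in SAT D-CAN (97.36 to 99.17%). They were 21.0, 24.3, 5.14 and 3.74% of the kept cells in the same order, and gave 5.75, 6.20, 5.56 and 6.19% of all UMIs. *C1qa* was at 7101 CPM in macrophage-like cells of tumor control, 6505 in tumor D-CAN, 1657 in SAT control and 909 in SAT D-CAN. *C1qb* was at 3805, 3527, 1090.5 and 554 CPM, and *C1qc* at 2674, 2643, 780.1 and 336 CPM in the same libraries. For each chain both tumor libraries were above both SAT libraries, and SAT D-CAN was the lowest of the 4.

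**Figure D1:**
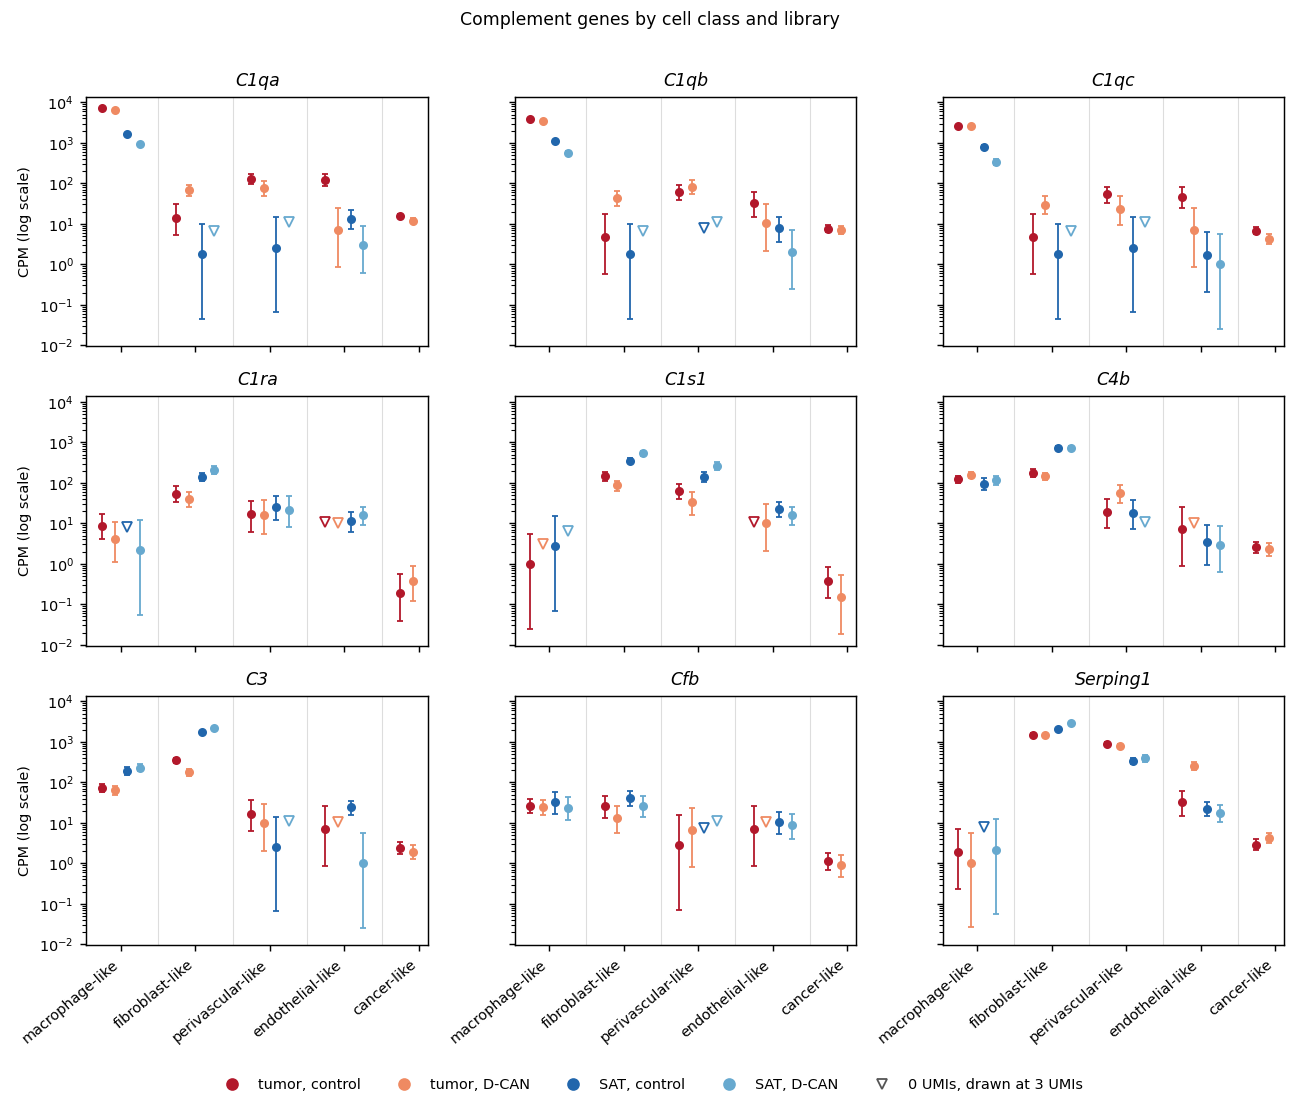
Level of each gene (CPM, log axis) by cell class and library, with exact Poisson 95% intervals; open triangles are drawn at 3 UMIs where none was counted. The C1q chains reach 7101 CPM in macrophage-like cells, whereas *C1s1* and *Serping1* have 0 to 2 UMIs there in each library. Both are higher in the fibroblast-like and perivascular-like cells, the latter being the mixed cluster 11 in tumors.

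The chains were found in the same cells and in a similar ratio in every library. To compare cells of unequal depth, each cell was thinned at random to 1000 UMIs and shallower cells were left out. All 3 chains then had a UMI in 68.0% of 428 macrophage-like cells in tumor control (63.3 to 72.4%) and in 61.7% of 295 cells in tumor D-CAN (55.9 to 67.3%). In SAT the share was 23.2% of 82 control cells (14.6 to 33.8%) and 13.1% of 61 D-CAN cells (5.84 to 24.2%). Without thinning these shares were 67.2, 63.2, 17.8 and 18.3%. Macrophage-like cells without any C1q UMI at this depth made up 17.8, 23.1, 65.9 and 72.1%, so that in SAT most cells of the class had none. Among all cells of the class with a C1q UMI, before thinning, the median number of C1q UMIs was 21 and 28 in the tumors and 8 and 23 in SAT control and D-CAN. After thinning to 1000 UMIs it was 16.5 and 17 in the tumors and 9.5 and 5 in SAT, so that the order within SAT depended on depth. *C1qa* gave 52.3, 51.3, 47.0 and 50.5% of the C1q UMIs of the class, *C1qb* 28.0, 27.8, 30.9 and 30.8% and *C1qc* 19.7, 20.8, 22.1 and 18.7%. The order of the chains was the same in the 4 libraries.

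**Figure D2:**
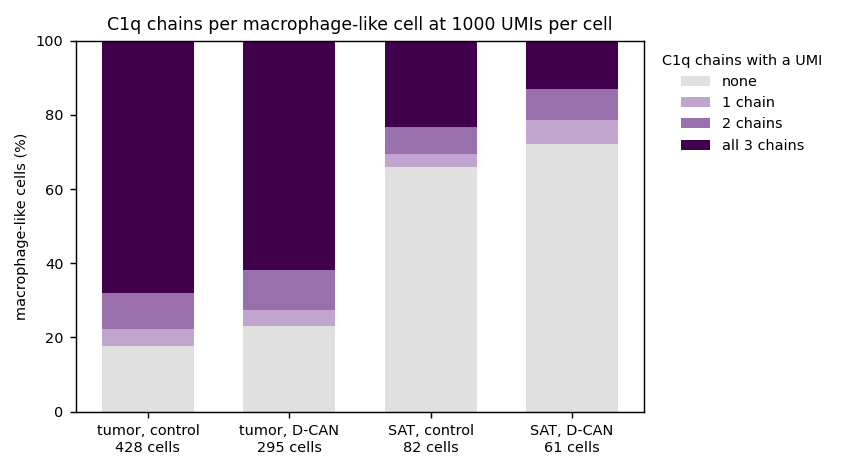
Share of macrophage-like cells (%) with UMIs of none, 1, 2 or all 3 C1q chains after thinning to 1000 UMIs per cell, 1 bar per library. All 3 chains were found in 68.0 and 61.7% of cells in the tumors and in 23.2 and 13.1% in SAT.

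Between tissues, the C1q level of the macrophage-like class was 3.42 to 4.28 times higher in tumor than in SAT in the control libraries and 6.36 to 7.85 times higher in the D-CAN libraries. The log2 ratio of tumor over SAT was 2.10 (1.98 to 2.22) in control and 2.84 (2.70 to 2.99) in D-CAN for *C1qa*, 1.80 (1.65 to 1.95) and 2.67 (2.49 to 2.86) for *C1qb*, and 1.77 (1.60 to 1.96) and 2.97 (2.74 to 3.22) for *C1qc*. A gene was counted as higher or lower if it differed at least 2-fold and had at least 20 UMIs over the cells compared. By this rule the 3 C1q chains were higher in both pairs and *C3* was lower, of 6 members with enough UMIs. Among all genes with enough UMIs, 9.89% were at least 2-fold higher and 8.53% lower in the control pair, and 13.2 and 13.7% in the D-CAN pair. The median log2 ratio was 1.06 and 1.55 over the 6 members, and -0.03 over all genes in both pairs.

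The makeup of the class also differed between the tissues. *Csf1r* encodes the receptor for the macrophage growth factor. Without thinning, it had a UMI in 48.9 and 54.0% of macrophage-like cells of tumor control and D-CAN. In SAT control and D-CAN the shares were 26.7 and 42.3%. The median depth of the class was 1497, 2192, 1167.5 and 4573 UMIs in the same order, and its part in these shares was not tested. Within SAT, D-CAN had the larger *Csf1r* share but the lower C1q level. In the cells with a *Csf1r* UMI, summed C1q was at 15099 and 14566 CPM in the tumors and at 6777 and 4108 CPM in SAT, against 13579.8, 12675, 3528 and 1799 CPM in the whole class. Per 100 UMIs of *Lyz2*, a lysozyme gene of myeloid cells, C1q had 92.4 and 84.2 UMIs in the tumors and 27.5 and 25.6 in SAT. Tumor was above SAT on each of these scales. With *Csf1r* cells alone, and per *Lyz2* UMI, the gap was smaller than by CPM of the whole class. Per *Lyz2* UMI it was similar in the control and D-CAN pairs. In *Csf1r* cells the log2 ratios of the control pair were 1.33 for *C1qa* and 0.96 for *C1qb*, which is under 2-fold. Those of the D-CAN pair were 1.86 for *C1qa* and 1.63 for *C1qb*. The part that the dendritic, monocyte and B cell markers of the SAT class have in the difference was not tested.

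The 4 macrophage-like clusters of the tumors all carried C1q but differed in *C4b* and *C3*. *C1qa* was at 7996 CPM in the cluster led by *Lyz2*, *Apoe* and *Ms4a7* with *Arg1* (cluster 4, 366 cells), 5526 in the one with *Cd74* and *H2-Ab1* (cluster 7, 280 cells), 5141 in the one with *Ccl8* and *Mpeg1* (cluster 8, 232 cells) and 5669 in the smallest (cluster 14, 62 cells), both libraries summed. *C4b* was highest in cluster 8, at 319 CPM (236 to 422) in control and 383 (250.5 to 562) in D-CAN cells, and at 152, 67.3 and 35.7 CPM in clusters 4, 7 and 14. *C3* was highest in cluster 7, at 165 CPM (119 to 222) in control and 144 (98.9 to 202) in D-CAN cells, against 33.9, 72.3 and 49.1 CPM in clusters 4, 8 and 14. In cluster 7 the class II gene *H2-Ab1* was at 5952 CPM and the monocyte gene *Ly6c2* at 338 CPM. The other 3 tumor clusters had 777 to 1597 CPM of *H2-Ab1*. In the SAT macrophage-like cluster *H2-Ab1* was at 5101 and *Ly6c2* at 431 CPM.

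Outside the macrophage-like class, C1q was at a far lower level in both tissues, highest in tumor stromal and tumor control endothelial-like cells. Cancer-like cells had 29.9 C1q CPM in control (27.3 to 32.7) and 23.2 in D-CAN (20.7 to 26.0), and their C1q UMIs were 51.8% *C1qa*, 25.5% *C1qb* and 22.7% *C1qc* in control, close to the split in macrophage-like cells of that library. After thinning, *C1qa* had a UMI in 1.94 and 1.07% of cancer-like cells, at a median depth before thinning of 7238 and 14503.5 UMIs, against 78.5 and 73.9% of macrophage-like cells at 1497 and 2192 UMIs. Without the 178 cells with the highest doublet scores of all libraries, the *C1qa* UMIs of cancer-like cells went from 244 to 177 in control and from 160 to 71 in D-CAN. The scores come from a run that was taken not to have worked, so these cells are not shown to be doublets. In SAT, endothelial-like cells had 26 C1q UMIs in control, or 22.5 CPM (14.7 to 33.0), and 6 in D-CAN, or 5.98 CPM. Dendritic-like cells had 5 UMIs (20.8 CPM) in control and none in D-CAN, and neutrophil-like cells 1 and none. T cells had 6 C1q UMIs in control and 3 in D-CAN, or 2.95 and 1.15 CPM, and B cells had 6.56 and 1.79 CPM. Stromal cells had 2, 1 and 2 UMIs of *C1qa*, *C1qb* and *C1qc* in SAT control and none of them in SAT D-CAN, which allows up to 3 UMIs each. In tumor stromal cells the same genes had 52, 24 and 21 UMIs in control and 64, 51 and 25 in D-CAN. Summed C1q was at 124 CPM in tumor control and 154 in tumor D-CAN stromal cells, against 5.27 CPM in those of SAT control. Much of the tumor stromal C1q came from single cells. In control, 1 cell held 38 of the 52 *C1qa*, 20 of the 24 *C1qb* and 16 of the 21 *C1qc* UMIs, and in D-CAN 1 cell held 37 of the 64, 26 of the 51 and 18 of the 25. Without the 10 stromal cells of control and 9 of D-CAN among those 178, 13, 4 and 3 UMIs were left in control and 46, 37 and 23 in D-CAN. Tumor control endothelial-like cells had 34 *C1qa* UMIs, 17 of them in 1 cell, and 4 were left without 3 such cells. With all cells, summed C1q was at 201 CPM in the endothelial-like cells of tumor control and 24.1 CPM in those of tumor D-CAN.

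**Figure D3:**
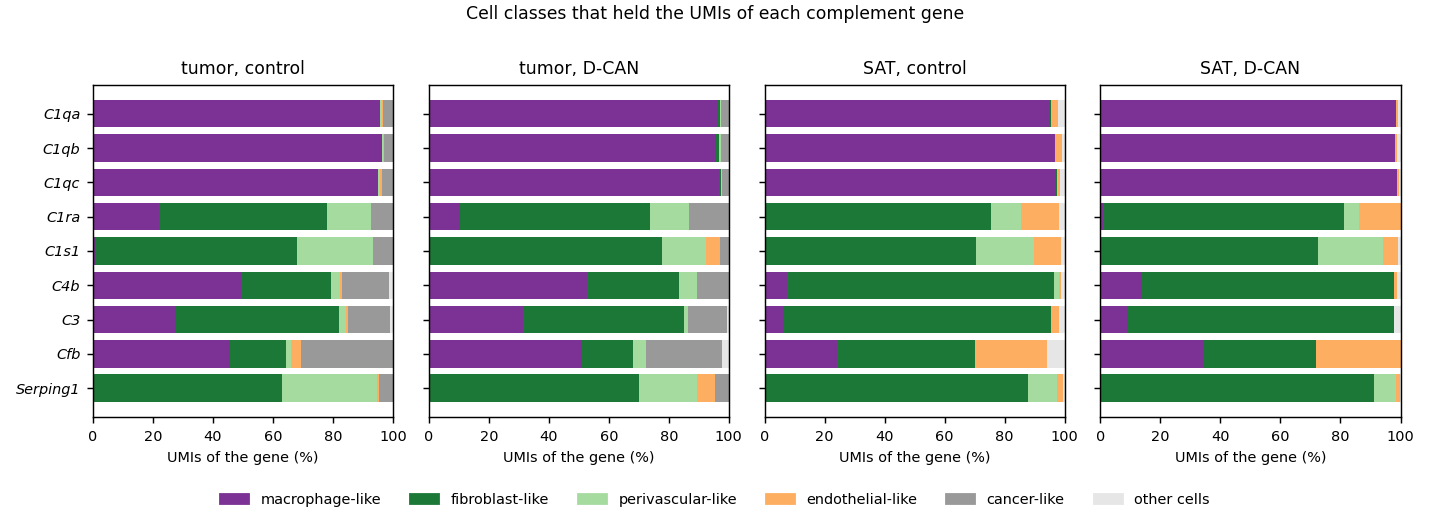
Share of each gene's UMIs (%) held by each cell class, 1 bar per library. Macrophage-like cells held 95.7 to 98.4% of the C1q UMIs, and stromal cells 89.4 to 94.3% of *C1s1* and 89.3 to 98.5% of *Serping1*, and also most of *C3*. Of the *C4b* UMIs in tumors, macrophage-like cells held 49.4 and 52.8% and stromal cells 32.8 and 36.5%. In SAT, stromal cells held 90.4 and 84.1% of them.

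The proteases of the C1 complex and their inhibitor had the opposite pattern. Stromal cells held 92.3, 92.5, 89.4 and 94.3% of *C1s1* UMIs, 70.7, 76.3, 85.3 and 85.5% of *C1ra* UMIs and 94.3, 89.3, 97.5 and 98.5% of *Serping1* UMIs in tumor control, tumor D-CAN, SAT control and SAT D-CAN. In fibroblast-like cells *C1s1* was at 145, 86.4, 355 and 534 CPM, and *C1ra* at 54.5, 39.9, 138 and 207 CPM. *Serping1*, the member with the most stromal UMIs in each library, was at 1525, 1449, 2111 and 2923 CPM in the same cells. Macrophage-like cells had 1, 0, 1 and 0 UMIs of *C1s1* and 2, 1, 0 and 1 UMIs of *Serping1*. The *C1ra* count in these cells was 9, 4, 0 and 1 UMIs. *C1s1* and *Serping1* were also present in the other stromal cluster of each tissue. In tumor cluster 11, with its fibroblast markers, *C1s1* was at 64.1 CPM in control and 32.7 in D-CAN, and *Serping1* at 902 and 795 CPM. In SAT cluster 7, *C1s1* was at 138 and 265 CPM and *Serping1* at 339 and 392 CPM, and the cluster also had all 10 endothelial markers detected. The part of these markers in the levels was not tested.

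*C3*, *C4b* and *Cfb* were found in both macrophage-like and fibroblast-like cells. *C3* was at 351, 179, 1736 and 2201 CPM in fibroblast-like cells and at 73.8, 65.1, 192 and 229 CPM in macrophage-like cells of tumor control, tumor D-CAN, SAT control and SAT D-CAN. *C4b* was at 180.2, 146, 731 and 710.3 CPM in fibroblast-like and at 121, 157, 94.5 and 116 CPM in macrophage-like cells. *Cfb* was low in both, at 13.3 to 41.2 CPM in fibroblast-like and 24.0 to 32.4 CPM in macrophage-like cells, from 8 to 27 UMIs per library. Macrophage-like cells held 49.4 and 52.8% of the *C4b* UMIs of the tumor libraries but 7.63 and 13.8% of those in SAT, where stromal cells held 90.4 and 84.1%. For *C3* the macrophage-like share was 27.8 and 31.3% in tumors and 6.51 and 9.32% in SAT, and the stromal share 56.4 and 55.2% against 89.0 and 88.6%. Single cells weigh on some of these levels. In SAT macrophage-like cells 1 cell held 29 of 71 *C3* UMIs in control and 1 held 72 of 105 in D-CAN, and without it *C3* was at 113 and 72.0 CPM, against 65.0 and 59.9 CPM in the tumors when their top cell was left out too. One cell also held 21 of 35 *C4b* UMIs in SAT control. SAT neutrophil-like cells, 16 and 18 in number, had *C3* at 353 and 273 CPM from 8 and 10 UMIs, 7 of the 8 in 1 cell.

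Within the stromal cells, *C3* and *C4b* were high in some fibroblast-like clusters and low in others and in tumor cluster 11 and SAT cluster 7, whereas *Serping1* was found in all. In the tumors, cluster 15 (35 cells, led by *Dcn*, *Apod* and *Mfap5*) had *C3* at 1007 CPM (860 to 1171) and *C4b* at 815 CPM (684 to 964). The other fibroblast-like cluster, 13 (116 cells, with *Tagln*, *Acta2* and *Thbs4*), had *C3* at 103 CPM (82.4 to 127) and *C4b* at 32.7 CPM (21.7 to 47.2). Cluster 15 was above cluster 13 in both libraries, with *C3* at 1173 against 135 CPM in control and at 822 against 82.3 CPM in D-CAN. It was also higher in *C1s1* (348 against 64.2 CPM), *C1ra* (132 against 29.2), *Cfb* (53.9 against 11.7) and *Serping1* (2475 against 1286). In SAT, cluster 13 (111 cells, with *Apod*, *Lum* and *Cxcl14*) had 2342 CPM of *C3* and 1123 of *C4b*, and cluster 4 (238 cells, with *Pi16*, a gene of early adipose progenitors) had 1855 and 538 CPM. In SAT cluster 13, *C4b* was at 1656 CPM in control and 758 in D-CAN. Tumor cluster 11 had *C3* at 13.5, *C4b* at 36.1 and *Serping1* at 853 CPM, and SAT cluster 7 had a single *C3* UMI, *C4b* at 10.5 and *Serping1* at 360.5 CPM. After thinning to 1000 UMIs, *C3* and *C4b* were found together in 25.7% of 35 cells of tumor cluster 15 and in none of 115 of tumor cluster 13, and in 24.5% of 110 cells of SAT cluster 4 and 47.4% of 76 of SAT cluster 13. Without thinning the shares were 51.4, 6.90, 25.2 and 45.9%. A small SAT cluster, 15, with 30 control cells and no D-CAN cell, had no *C4b* UMI.

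**Figure D4:**
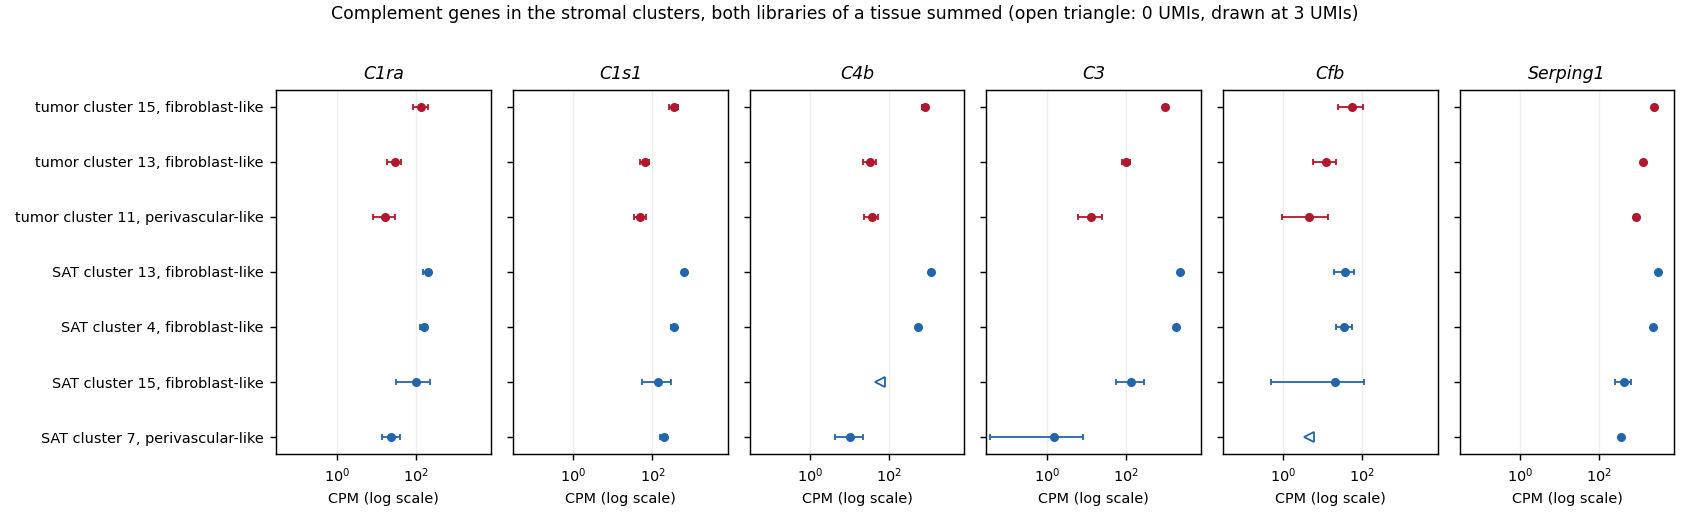
Level of 6 members (CPM, log axis, exact Poisson 95% intervals) in each stromal cluster, the 2 libraries of a tissue summed; open triangles are drawn at 3 UMIs where none was counted. *C3* spans from 1 UMI in SAT cluster 7 to 2342 CPM in SAT cluster 13, whereas *Serping1* is at 360.5 CPM or more in every cluster.

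Macrophage-like over stromal cells, the C1q chains were at least 2-fold higher and *C1ra*, *C1s1* and *Serping1* at least 2-fold lower in all 4 libraries. For *C1qa* the fold was 106 and 91.5 in tumor control and D-CAN and 629 in SAT control (2 stromal UMIs, log2 ratio 9.30 with an interval of 7.76 to 12.67), and it was at least 221 in SAT D-CAN, a bound set at 3 UMIs over the stromal cells. All 9 members had enough UMIs in each library, of which 3, 4, 3 and 3 were higher and 4, 3, 5 and 5 lower in tumor control, tumor D-CAN, SAT control and SAT D-CAN. Among all genes 15, 15.1, 12.4 and 15% were higher and 20.7, 21.9, 25.3 and 26.2% lower. The other lower calls were *C3* in tumor control and *C3* and *C4b* in both SAT libraries, and the other higher call was *Cfb* in tumor D-CAN (24 against 10 UMIs, log2 ratio 1.13, 0.05 to 2.40). *C4b* differed by less than 2-fold between the classes in both tumors, with log2 ratios of 0.19 (-0.22 to 0.61) and 0.44 (0.07 to 0.81). The median log2 ratio over the members was 0.19, 0.44, -2.19 and -1.92, against -0.14, -0.14, -0.18 and -0.17 over all genes.

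Over endothelial-like cells, 6 members were higher in macrophage-like cells in every library, the C1q chains, *C4b*, *C3* and *Cfb*. The number was 5 by the mean of each cell's CPM, where *Cfb* was at a log2 ratio of 0.41 in tumor control, 5 without the highest doublet scores and 5 in *Csf1r* cells, and 4 with at least 50 UMIs. The number with enough UMIs was 6, 7, 8 and 6. Among them, those lower were *Serping1* in tumor D-CAN and *C1s1* and *Serping1* in SAT control. Among all genes 16.1, 15.8, 12.8 and 13.7% were higher and 19.3, 21.5, 25.3 and 24.9% lower. The smallest of these differences was for *Cfb*, with log2 ratios of 1.57 (-0.13 to 4.98) in tumor control, 1.64 (0.36 to 2.92) in SAT control and 1.41 (0.01 to 2.87) in SAT D-CAN, and with no endothelial UMI in tumor D-CAN. The median over the members with enough UMIs was 4.77, 6.52, 3.79 and 7.53 on the log2 scale. It was 3.93 in tumor D-CAN with members at 0 set at their bound. Over all genes the medians were -0.20, -0.23, -0.23 and -0.21. Members with too few UMIs are in neither the counts nor the medians. In SAT D-CAN those left out were *C1ra* (1 against 16 UMIs), *C1s1* (0 against 16) and *Serping1* (1 against 18). All had fewer UMIs in macrophage-like cells, so the count and median there depend on the UMI minimum. In tumors *C1ra*, also left out, went the other way, with 9 and 4 UMIs against none, as did *C1s1* in tumor control (1 against none). The other members left out had fewer UMIs in macrophage-like cells. They were *Serping1* in tumor control (2 against 9), *C1s1* in tumor D-CAN (0 against 3) and *C1ra* in SAT control (0 against 13). Over cancer-like cells, the 6 members named were again higher in both tumors of 7 with enough UMIs, and *Serping1* was lower in D-CAN (1 against 57 UMIs, log2 ratio -1.48, -7.38 to 0.48). The difference was large, *C1qa* by 458 and 539 times, *C4b* by 47.4 and 66.5 times and *C3* by 30.4 and 32.9 times. There 22.4 and 21.9% of all genes were higher and 24.9 and 26.9% lower, and the medians were 5.57 and 6.05 over the members and -0.11 and -0.15 over all genes. *Serping1* was at 2.92 and 4.29 CPM in cancer-like cells, *C1s1* at 0.381 and 0.150 and *C3* at 2.41 and 1.96 CPM.

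In stromal cells, 4 members were lower in tumor than in SAT in both pairs. *C3* was at 197 and 122 CPM in tumor control and D-CAN against 1023 and 1369 CPM in SAT, with log2 ratios of -2.37 (-2.63 to -2.13) and -3.48 (-3.78 to -3.20). *C4b* had ratios of -2.04 (-2.40 to -1.70) and -1.93 (-2.26 to -1.61), *C1s1* of -1.30 (-1.68 to -0.94) and -2.65 (-3.08 to -2.26), and *C1ra* of -1.29 (-1.96 to -0.68) and -2.08 (-2.75 to -1.49). *Serping1* was within 2-fold, with ratios of -0.16 (-0.28 to -0.04) and -0.68 (-0.79 to -0.56), and so was *Cfb*, with -0.63 (-1.80 to 0.41) and -0.57 (-1.95 to 0.76). The C1q chains were the 3 higher members, from the few UMIs described above, and by at least 17.1, 13.7 and 6.70 times in the D-CAN pair, where SAT had none. By the mean of each cell's CPM, *C1ra* and *C1s1* were under 2-fold in the control pair, at -0.87 and -0.64, which leaves *C3* and *C4b* lower in both pairs. In the control pair, 9.64% of all genes were higher and 14.7% lower, and in the D-CAN pair 12.2 and 16.9%. The median log2 ratio over the 9 members was -0.63 and -0.68, and -0.05 over all genes in both pairs. The stromal class held fewer fibroblast-like cells in tumors, 85 of 193 and 66 of 117, than in SAT control, 292 of 461, while SAT D-CAN had 87 of 133. The other stromal cells were those of the mixed cluster 11 in tumors and of cluster 7 in SAT. Within fibroblast-like cells *C3* was at 351 and 179 against 1736 and 2201 CPM, and the *Serping1* ratios were -0.47 and -1.01, the second past 2-fold. The tumor fibroblast-like cells were themselves a mix, 116 cells of cluster 13 and 35 of cluster 15, with *C3*, *C4b* and *C1s1* higher in cluster 15. In tumor cluster 15 alone, *C3* was below its levels in SAT fibroblast-like cells. *C1s1* was below too, but close to its SAT control level. *C4b* was slightly above, with both SAT levels inside its counting interval. In SAT cluster 13, both libraries summed, *C4b* was above its level in tumor cluster 15. The part of the cluster mix in the tumor over SAT ratios was not tested.

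**Figure D5:**
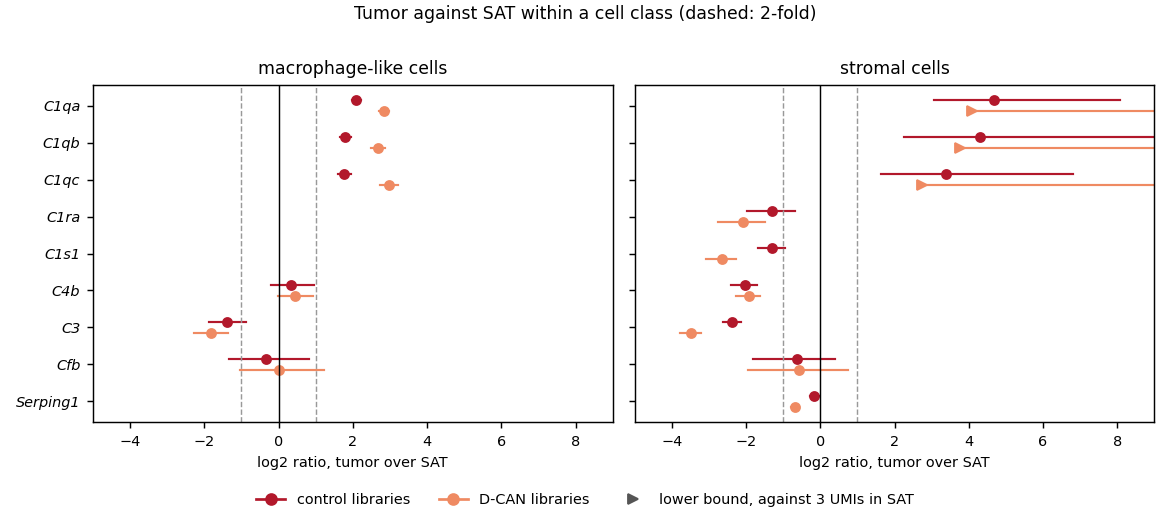
Log2 ratio of tumor over SAT for each member with at least 20 UMIs, in macrophage-like and stromal cells, with exact conditional 95% intervals; triangles are lower bounds set at 3 UMIs in SAT. The C1q chains are higher in tumor in macrophage-like cells (1.77 to 2.97), and *C1ra*, *C1s1*, *C4b* and *C3* are lower in tumor stromal cells.

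Between tissues, the macrophage-like level of *C3* was lower in tumor, with log2 ratios of -1.38 (-1.86 to -0.89) and -1.81 (-2.29 to -1.35), but with the top cell of each sum left out they were -0.81 and -0.27, under 2-fold in both pairs. In *Csf1r* cells alone *C3* was at 91.9 and 80.2 CPM in the tumors and 298 and 522 CPM in SAT. The SAT values came from 39 and 30 cells, and the cell with the most *C3* UMIs was not left out in this setting. In endothelial-like cells few members had enough UMIs, 4 in the control pair and 1 in the D-CAN pair. In the control pair *C1qa* was higher in tumor (34 against 15 UMIs, log2 ratio 3.21, but 0.28 without the highest doublet scores) and *C1s1* and *C3* lower, *C1s1* by at least 2.09 times (0 against 26 UMIs) and *C3* with 2 against 28 UMIs (-1.46, -4.87 to 0.23), where 10.3% of all genes were higher and 13.3% lower. *Serping1* was higher in the D-CAN pair (258 against 17.9 CPM), where 10.1% of genes were higher and 11.9% lower. One tumor cell held 48 of the 75 UMIs, and without it the tumor level was 92.8 CPM. Summed fibroblast markers in these cells were at 870 CPM in tumor and 73.8 in SAT, and their part was not tested. The median log2 ratio over the 4 members of the control pair was -0.44, or -0.24 with *C1s1* at its bound, and 0.03 over all genes. The complement UMIs of SAT endothelial-like cells were concentrated in cluster 10 (182 cells, with *Ackr1*, *Selp* and *Vwf*, genes of venous endothelium), which had *C1s1* at 58.4, *C3* at 40.1 and *Serping1* at 52.9 CPM. The other 2 clusters had 3.06 to 11.1 CPM of *C1s1* and 3.06 to 6.37 CPM of *C3*.

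For D-CAN against control, the members of the tumor libraries were close in the main classes. In tumor macrophage-like cells none of 6 members passed 2-fold (1.33% of all genes were higher and 2.28% lower), and the log2 ratio, D-CAN to control, was -0.13 (-0.18 to -0.08) for *C1qa*, -0.11 (-0.18 to -0.04) for *C1qb*, -0.02 (-0.10 to 0.06) for *C1qc* and 0.37 (0.02 to 0.73) for *C4b*. None of 9 passed in tumor stromal cells (1.85% higher and 2.34% lower), with *C3* at -0.69 (-1.05 to -0.33), *C1s1* at -0.65 (-1.15 to -0.16) and *Serping1* at -0.01 (-0.14 to 0.11). None of 7 passed in cancer-like cells either (0.814% and 1.1%), although without the highest doublet scores the C1q chains were at -1.10, -1.25 and -1.36 there and at 1.56, 2.83 and 2.52 in stromal cells, from 3 to 46 UMIs in a stromal library. In tumor endothelial-like cells *Serping1* was higher in D-CAN (75 against 9 UMIs, log2 ratio 2.92, 1.99 to 4.18), but 48 of the 75 UMIs were in 1 cell, and *C1qa* was lower (2 against 34 UMIs, -3.85, -7.26 to -2.19), with 17 of the 34 control UMIs in 1 cell, and -0.96 without the highest doublet scores. There 3.99% of genes were higher and 3.06% lower. Summed fibroblast markers in these endothelial-like cells were at 870 CPM in D-CAN and 86.3 in control, and perivascular markers at 1303 and 449.6 CPM, and their part in the *Serping1* value was not tested.

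In SAT, the C1q chains were lower by CPM in D-CAN than in control macrophage-like cells. The log2 ratios were -0.87 (-1.05 to -0.68) for *C1qa*, -0.98 (-1.21 to -0.75) for *C1qb* and -1.21 (-1.51 to -0.93) for *C1qc*. Of 6 members 1, *C1qc*, passed 2-fold (4.91% of all genes were higher and 4.62% lower). One D-CAN cell held 129 of 417 *C1qa* and 77 of 254 *C1qb* UMIs, and without it these were at 628 and 386 CPM. With the top cell of each sum left out the ratios were -1.13 for *C1qa*, -1.25 for *C1qb* and -1.34 for *C1qc*, all past 2-fold, and 1.21 for *C4b*. The macrophage markers of the class, 15054 against 8332 CPM, moved the same way, and the dendritic and B cell markers the other way. In *Csf1r* cells alone C1q was at 6777 CPM in control (39 cells) and 4108 in D-CAN (30 cells), and *C1qc* was then just under 2-fold. Per 100 *Lyz2* UMIs, C1q had 27.5 UMIs in control and 25.6 in D-CAN, a much smaller difference than by CPM. The part of cell makeup in the C1q values was not tested. In SAT stromal cells none of 6 members passed (4.06% higher and 5.2% lower), with *C1s1* at 0.70 (0.46 to 0.95), *C1ra* at 0.58, *Serping1* at 0.51 (0.40 to 0.62), *C3* at 0.42 (0.29 to 0.55) and *C4b* at 0.01 (-0.20 to 0.23). In SAT endothelial-like cells 1 of 5, *C3*, passed (1 against 28 UMIs, 11 of them in 1 cell, -4.04, -9.96 to -2.01), where 1.87% of genes were higher and 2.47% lower. The medians over the members were -0.09, -0.01 and -0.29 in tumor macrophage-like, stromal and cancer-like cells and -0.65, 0.46 and -0.32 in SAT macrophage-like, stromal and endothelial-like cells, and those over all genes lay between -0.01 and 0.03. The SAT D-CAN library was deeper per cell in these classes, with a median of 4573 against 1167.5 UMIs in macrophage-like and 4739 against 1019 in stromal cells. It was also counted with Cell Ranger 3.0.2, and SAT control and tumor D-CAN with 3.1.0. Depth, treatment, animal and software version cannot be told apart. The D-CAN pair of tumor over SAT differs in this version too.

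The other complement genes on a list of 52, the members among them, were read in the same comparisons. Those without a member's name that had enough UMIs numbered 16, 17, 17 and 17 in macrophage-like over stromal cells, of which 8, 7, 5 and 4 were higher and 6, 8, 9 and 10 lower in tumor control, tumor D-CAN, SAT control and SAT D-CAN, beside 15, 15.1, 12.4 and 15% of all genes higher and 20.7, 21.9, 25.3 and 26.2% lower. In all 4 libraries *Cfp*, which encodes properdin, the stabiliser of the alternative convertase, and the integrin genes *Itgam* and *Itgb2*, which form complement receptor 3, were higher, and *C1rb*, *C1s2*, *C2*, *Colec12* and *Cd59a* were lower. *C2*, the partner of C4 in the classical convertase, was at 114, 113, 125 and 176.5 CPM in fibroblast-like cells and at 1.94, 2.07, 0 and 4.36 CPM in macrophage-like cells. *Cfp* was at 180.5, 253, 310.4 and 198 CPM in macrophage-like cells. Tumor over SAT, 4 of 12 and 5 of 13 were higher in macrophage-like cells and 2 and 2 lower, beside 9.89 and 13.2% of all genes higher and 8.53 and 13.7% lower. The anaphylatoxin receptor *C3ar1* was at 483 and 492 CPM in tumor macrophage-like cells against 99.9 and 26.2 CPM in SAT, and *C5ar1* at 179.5 and 201 against 40.5 and 34.9 CPM. *Fcna*, a ficolin of the lectin pathway, was lower in tumor, at 18.4 and 13.4 against 48.6 and 69.8 CPM. In stromal cells 3 of 12 and 3 of 14 were higher in tumor and 7 and 7 lower, beside 9.64 and 12.2% of all genes higher and 14.7 and 16.9% lower. *C7*, a component of the membrane attack complex, was at 102 and 141 CPM in SAT fibroblast-like cells and had 2 and 1 UMIs in those of the tumors. *Cd55*, which speeds the decay of convertases, was at 40.3 and 48.2 CPM in tumor against 242 and 271 CPM in SAT fibroblast-like cells, whereas *Cd59a*, an inhibitor of the membrane attack complex, was at 360.4 and 228 against 43.0 and 41.9 CPM. All 253 UMIs of *Cfd*, the gene of factor D, in tumor D-CAN fibroblast-like cells were in 1 cell.

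The genes most like each member were found among 10583 genes with at least 200 UMIs. The values compared were log2(CPM + 1) over 26 profiles of a class in a library. Classes of at least 50 cells were used, the unnamed cells of a library among them. The profiles of a tissue share clustering and depth, so Pearson's r is given as a description. *C1qa* was most like the other chains, and *C1qb* and *C1qc* were most like each other, with r of 0.95 for *C1qa* and *C1qc*, 0.94 for *C1qa* and *C1qb* and 0.98 for *C1qb* and *C1qc*. The macrophage genes *Ms4a7* (0.96) and *Msr1* (0.95) ranked above *C1qa* for *C1qb*, *Ms4a7* (0.96) ranked above *C1qa* for *C1qc*, and *Msr1* (0.92) came next to the chains for *C1qa*. *C3* was most like *C4b* (0.91), followed by *Adam33* (0.88), whereas *C4b* was most like *Rnase4* (0.92), followed by *C3*. *C1s1* was most like its copy *C1s2* (0.98), *Ndn* (0.96) and *Rarres2* (0.96), and *C1ra* like *Slit3* (0.92), *Fxyd1* (0.91) and *Steap3* (0.91). *Serping1* was most like *Col6a1* (0.98), *Adamts12* (0.97) and *Olfml2b* (0.97). Between members, *C1s1* had r of 0.90 with both *C1ra* and *Serping1*, and *C1qa* had -0.26 with *C1s1*. *Cfb* had under 200 UMIs and was not ranked.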

How the data were processed

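The study sequenced 4 single-cell libraries, 1 per group, made with the 10x 3′ kit (version 3 per the labels, 3.1 in the methods). The authors aligned reads to mm10 with Ensembl 93 genes by Cell Ranger with STAR 2.6 and deposited raw counts of UMIs for each gene in each cell, without normalization. The matrix headers give Cell Ranger 3.0.2 for SAT D-CAN and 3.1.0 for the others. Members and lists were chosen with earlier results of these data known.

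Cells with at least 200 genes were clustered per tissue in Seurat 5.3.0 (R 4.3.3; 2000 variable genes without the complement list, 10 principal components, resolution 0.8). A marker counted if found in 10% of a cluster's cells and at 10% of its highest cluster, and a name needed 3 markers. A first rule (25%, class by share of its list) left 3 cancer-like clusters and the SAT macrophage-like cluster unnamed and was changed after this was seen. Scrublet in scanpy 1.11.5 marked 16 of 9128 cells and was taken not to have worked, so no doublets were removed. The 178 cells of highest doublet score come from this same run. They are the top scores of each library, as many as an assumed rate gives (1.22 to 2.28% of cells), and are not shown to be doublets.

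UMIs were summed per class and library. Log2 ratios had 0.5 UMI added. Intervals are exact (Poisson for CPM, Clopper-Pearson for shares, conditional binomial for ratios), from scipy 1.17.1 with numpy 2.4.6 and pandas 2.3.3 in Python 3.11.15. PCR copies are collapsed by UMI. The limit for a count of 0 is 3 UMIs. Named are the members, the listed genes that passed 2-fold the same way in every library or pair, and the 3 genes most like each member. The 6 motifs, 1 of which is not reported here, were chosen with expression known, and their window was shortened from 300 to 250 bases after matches had been seen, which dropped a STAT and a CEBP match past the start of C1ra. The ratios and their intervals were tested on simulated counts, and thinning on the deeper macrophage-like cells of tumor control. A first thinning test on a single gene failed and was replaced by the mean over many genes. The alternatives tried stand in the closing section.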

Additional observations from a re-analysis of the deposited data

Results flagged for a closer look

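Stromal *C1s1* and *C3* had D-CAN over control ratios of opposite sign in the tissues. For *C1s1* the log2 ratio was -0.65 in tumor and 0.70 in SAT, and for *C3* it was -0.69 in tumor and 0.42 in SAT. The counting intervals of each ratio lay on 1 side of 0, but all 4 ratios were under 2-fold, and with 1 library per group the difference between the tissues was not tested.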

How the results depend on the processing

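No paired analysis was possible because each group has 1 library. Of 153 log2 ratios of members, 100 passed 2-fold. Over 1956 values under alternatives 0 changed sign among those that had passed, and 179 moved beyond their counting interval. Between 0 and 4 of the ratios past 2-fold came within it under an alternative. TMM factors, 20 principal components and resolution 0.4 ended none. Against the median of all genes, TMM shifted macrophage-like over endothelial-like ratios by up to 0.38 and over cancer-like ratios by -0.31 and -0.26. The cause of the moves below was not tested unless stated.

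The C1q share in macrophage-like cells of tumor control became 96.1% with at least 500 genes per cell, 96.1% with at most 20% mitochondrial UMIs, 96.0% with all variable genes and 97.4% without the highest doublet scores, and that of tumor D-CAN 96.7% with the mitochondrial limit and 98.1% without those scores. All 3 chains were found in 46.6, 40.4, 8.90 and 4.23% of cells at 500 UMIs, and in 83.0 and 72.6% in the tumors at 2000 UMIs. In cells with a *Csf1r* UMI, 1 member was lower in macrophage-like over cancer-like cells and 2 were lower in tumor over SAT. Without the cell holding the most UMIs of a gene, 0 were lower in tumor over SAT macrophage-like cells, so that *C3* was no longer past 2-fold in either pair.

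In tumor over SAT stromal cells, the number higher was 0 without the highest doublet scores, 1 with at least 50 UMIs and 0 in fibroblast-like cells alone, as the C1q UMIs came under the minimum, and the number lower was 2 by the mean of each cell's CPM (*C1ra* and *C1s1* lost). Macrophage-like over endothelial-like, the number higher went from 6 to 5 by that mean, without doublet scores and in *Csf1r* cells, and to 4 with at least 50 UMIs. In endothelial-like cells, the number lower in both pairs was 0 as reported, 3 with at least 500 genes and 1 at resolution 1.2. For D-CAN over control, calls were counted over all classes, so that a member can count in more than 1 class. As reported, these calls were *Serping1* higher and *C1qa* lower in tumor endothelial-like cells. In SAT they were *C1qc* lower in macrophage-like and *C3* lower in endothelial-like cells. No share of all genes was taken under the alternatives. In tumors, the higher calls numbered 4 without doublet scores, 4 in fibroblast-like cells alone, 2 without the top cell and 2 under the first naming rule. The lower calls there numbered 3 without doublet scores and 0 with at least 50 UMIs. In SAT, 1 call was higher by each cell's mean and 1 without the top cell. There, 4 calls were lower with at least 500 genes, with the mitochondrial limit, by each cell's mean and without the top cell, and 1 with at least 50 UMIs and in *Csf1r* cells.

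The first naming rule names no SAT macrophage-like cluster, so it gives no value for comparisons with these cells. The *Csf1r*, fibroblast-only and first-rule settings were chosen after seeing the data. Few UMIs limit *Cfb* and the members in endothelial-like cells, and few cells limit the SAT D-CAN macrophage-like class (71 cells).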
